A study of Mus musculus with 4 samples.

Results

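The 10 core and naive pluripotency transcription factors Pou5f1, Sox2, Esrrb, Tbx3, Klf4, Klf2, Klf5, Tfcp2l1, Prdm14 and Zfp42 were examined in mouse embryonic stem cells (ESCs) that lack Terc, the RNA template of telomerase. The factors were chosen by name, as known regulators of the pluripotent state, from the 24116 genes of the count table. RNA-seq libraries of third-generation (G3) Terc-/- ESCs, a line from embryos whose parents both lacked Terc and were of the G2 generation, were compared with libraries of wild-type (WT) ESCs. Both lines were of the C57BL/6 strain and were grown on feeder cells in serum with LIF, and poly(A) RNA of 2 libraries per genotype was sequenced. Each genotype was 1 ESC line, so genotype and line cannot be told apart. The labels number the libraries as replicates of a line and say no more, so p-values measure only the spread between these libraries, which may be technical.

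Pluripotency rests on a network of transcription factors that bind together at enhancers of ESC genes and of one another. Pou5f1 (OCT4) and Sox2 form the core, as a pair that binds DNA side by side, and are present in both naive and primed pluripotent cells. Esrrb, Tbx3, Klf2, Klf4, Klf5, Tfcp2l1, Prdm14 and Zfp42 are typical of the naive state of the preimplantation epiblast and of ESCs, and several of them are induced by LIF through STAT3 or are freed from repression by the Wnt effector TCF7L1.

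Gene counts per library lay between 18047995 and 22520017. Terc had 7 and 2 counts in WT ESCs and none in either Terc-/- library, and a count of 0 allows up to 3. The WT library with 2 counts lies within that bound, so Terc counts do not separate it from the Terc-/- libraries. All 11 ESC markers outside the 10 factors were detected in the libraries of both genotypes, with Dppa5a the highest in WT at 1327 and 1324 CPM (counts scaled by library size with TMM to a common total), Tdgf1 the highest in Terc-/- ESCs at 1726 and 1814 CPM, and Fut4 the lowest in both at 0.451 to 1.62 CPM. The fibroblast markers of the feeder cells were detected as well, with a summed level of 1808 and 1487 CPM in WT and 2556 and 2162 CPM in Terc-/- libraries. The spread between replicates exceeded sampling noise, since the chi-square per gene was 2.48 in WT and 3.76 in Terc-/- ESCs.

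Nearly all of the factors were higher in G3 Terc-/- ESCs, with rises from 1.20-fold in Zfp42 to 3.50-fold in Tbx3. Of the 10 factors, 9 were higher in Terc-/- than in WT ESCs at an adjusted p-value under 0.05, and Klf5 was not called. By the same rule, 21.7% of the 14896 genes tested were higher and 21.8% lower. With the study's cutoffs of a 2-fold change and an unadjusted P under 0.05, only Tbx3 and Prdm14 were higher, against a background of 4.73% of genes higher and 3.13% lower. No factor was lower by edgeR's quasi-likelihood test with either rule, at an unadjusted p under 0.05, or with DESeq2. The median log2 fold change was 0.41 over the 10 factors and 0.006 over all genes tested. The factors' summed level was 3490 and 3580 CPM in the WT libraries. It was 4925 and 5153 CPM in the Terc-/- libraries, and the groups did not overlap. How many of all genes tested had groups that did not overlap was not counted. In bulk RNA, more cells that express a factor and more RNA per cell cannot be told apart.

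**Figure D1:**
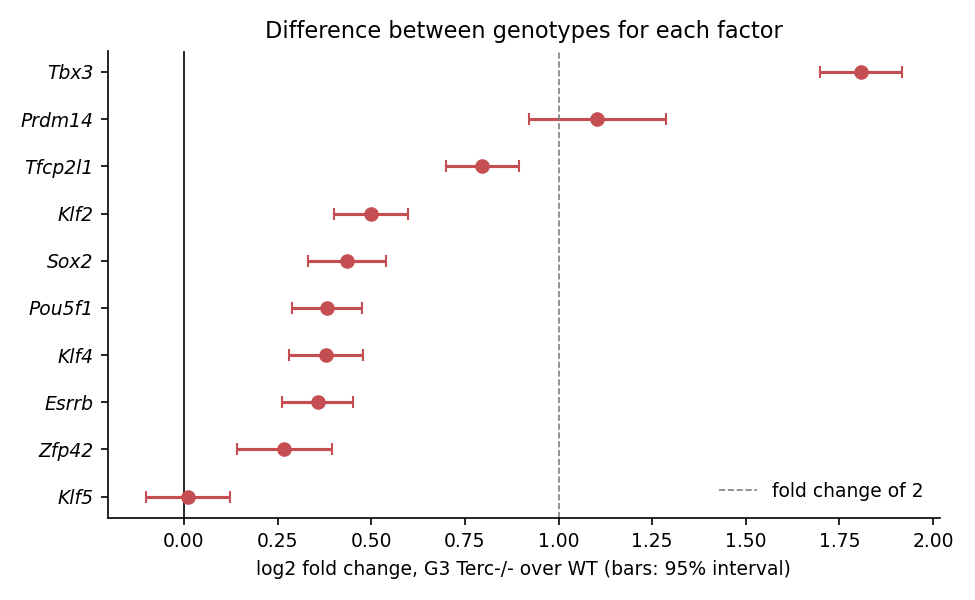
Log2 fold change of each factor, G3 Terc-/- over WT, with its 95% interval from edgeR, sorted by size, and a dashed line at a fold change of 2. Tbx3 stands apart at 1.81, the interval of Prdm14 spans the dashed line, and that of Klf5 spans 0.

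Of the feeder markers, 8 of 18 tested were higher and 1 was lower in Terc-/- ESCs (edgeR adjusted p under 0.05). Over all genes tested, the shares were 21.7% higher and 21.8% lower. Fn1, which made up the greater part of the sum, had a log2 fold change of 0.58, and Vim had one of 1.00 (edgeR adjusted p = 1.03e-16). Among the collagen genes, Col1a1 and Col1a2 had log2 fold changes of 0.16 and 0.21 with adjusted p-values of 0.304 and 0.184, and their libraries overlapped between genotypes. Col3a1, Col5a1 and Col6a1 were higher by 0.52, 0.58 and 0.65, of which the groups overlapped for Col3a1 alone. Thy1, Pdgfrb and Dcn were higher as well, by 0.55, 0.81 and 1.04. The number of feeder markers that were higher fell without Terc-/- replicate 1 or WT replicate 2. It rose without Terc-/- replicate 2 or WT replicate 1, and was 2 with DESeq2. The share over all genes in these fits is not given here. Of the 2 libraries of each genotype, the one with the higher feeder sum had the lower summed level of the 10 factors. Between genotypes, both sums were higher in the Terc-/- libraries. The part of the feeder cells in the differences between genotypes was not tested.

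To show the control regions these factors have in the genome, the 250 bases before an annotated transcript start were taken from RefSeq (build GRCm38.p6), which gave promoters for 7 of the 10 factors. The table held no entry for Tbx3, Klf5 and Prdm14. Printed here are Pou5f1, the most abundant factor, Klf4 and Klf2, which are close relatives, and Tfcp2l1, which had the largest change among the 7. All are written 5′ to 3′ on the strand of the gene, with capitals on each GC box (GGGCGG) and CACCC box (CACCC) on either strand, both of which are bound by proteins of the KLF and SP families.
Pou5f1 (chr17:35505782-35506031, plus strand): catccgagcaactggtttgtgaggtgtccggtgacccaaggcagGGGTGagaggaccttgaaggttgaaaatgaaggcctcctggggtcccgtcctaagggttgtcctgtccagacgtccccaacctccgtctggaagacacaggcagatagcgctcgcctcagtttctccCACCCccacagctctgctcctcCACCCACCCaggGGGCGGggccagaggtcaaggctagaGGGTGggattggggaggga
Klf4 (chr4:55532476-55532725, minus strand): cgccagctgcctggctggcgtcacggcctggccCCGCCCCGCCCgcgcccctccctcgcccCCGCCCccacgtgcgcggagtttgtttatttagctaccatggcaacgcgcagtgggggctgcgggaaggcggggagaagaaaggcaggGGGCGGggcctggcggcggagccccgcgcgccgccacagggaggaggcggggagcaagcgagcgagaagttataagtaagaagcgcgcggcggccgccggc
Klf2 (chr8:72318812-72319061, plus strand): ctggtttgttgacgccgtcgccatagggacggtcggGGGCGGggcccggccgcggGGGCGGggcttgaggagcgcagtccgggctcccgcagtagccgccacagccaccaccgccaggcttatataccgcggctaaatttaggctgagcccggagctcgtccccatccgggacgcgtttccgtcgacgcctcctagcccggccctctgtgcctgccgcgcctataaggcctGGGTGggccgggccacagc
Tfcp2l1 (chr1:118627695-118627944, plus strand): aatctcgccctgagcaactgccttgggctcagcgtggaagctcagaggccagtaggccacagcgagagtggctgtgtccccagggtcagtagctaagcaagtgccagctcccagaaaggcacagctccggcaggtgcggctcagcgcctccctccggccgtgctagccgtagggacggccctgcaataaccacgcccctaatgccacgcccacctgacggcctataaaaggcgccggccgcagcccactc
The Pou5f1 window held 1 GC box and 5 CACCC boxes, the Klf4 window 4 GC boxes, some of which overlap, and the Klf2 window 2 GC boxes and 1 CACCC box. The Tfcp2l1 window precedes a transcript that starts inside the annotated gene, so its last bases lie within the gene. It held neither motif, which says only that these letters are not in this window.

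Over the 9 windows of the 7 factors (Pou5f1 and Esrrb had 2 each), 5 factors had a GC box and 4 had a CACCC box. Of the 32851 promoters searched, 32.7% and 52% held these motifs. A factor was counted if any of its windows held the motif, whereas the shares are per promoter. The octamer ATGCAAAT, the POU factor motif, was found in 1 of the 7 factors, Zfp42, and in 1.6% of all promoters. The SOX motif ACAANG was present in 3 factors and in 36.3% of all promoters. The STAT motif TTCNNNGAA was present in Esrrb alone among the 7 and in 7.02% of all promoters. The ESRRB half-site AAGGTCA and the T-box half-site AGGTGTGA were in none of the 7 and in 4.08% and 1.12% of all promoters. Each motif was searched on both strands, and matches are descriptions of sequence, not binding sites.

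Both members of the core pair were higher, with 95% intervals of the log2 fold change (0.29 to 0.47 for Pou5f1 and 0.33 to 0.54 for Sox2) that overlapped. Pou5f1 (identifier 18999, chr17:35506032-35510777 of GRCm38.p6, plus strand), the POU-domain factor without which pluripotency is lost, was at 932 and 934 CPM in the WT libraries and at 1209 and 1223 CPM in the Terc-/- libraries. Both Terc-/- libraries lay above both WT libraries, and the libraries of a genotype were nearly equal. The log2 fold change was 0.38 (standard error 0.05, edgeR adjusted p = 4.07e-09), a 1.30-fold rise.

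Sox2 (identifier 20674, chr3:34649995-34652461, plus strand), the HMG-box partner of OCT4, was at 474 and 500 CPM in WT and at 618 and 700 CPM in Terc-/- libraries. The groups did not overlap, although the 2 Terc-/- libraries differed from each other by 1.13-fold. The rise was 0.44 on the log2 scale (standard error 0.05, edgeR adjusted p = 2.68e-09), and it lay between 0.35 and 0.53 when single libraries were left out. Per length of all annotated exons of a gene, Pou5f1 was at 1.80 and 1.71 times the level of Sox2 in WT. In Terc-/- libraries it was at 1.79 and 1.60 times, and the ranges overlapped. Sox2 lies within the longer transcript Sox2ot on the same strand, and Sox2ot had 23 and 16 counts in WT and 44 and 41 in Terc-/- libraries, against 10342 to 13698 counts for Sox2. The Pou5f1 pseudogene Pou5f1-rs4 had 0 counts in all 4 libraries, and other copies of Pou5f1 were not analysed here.

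Among the naive factors, Tbx3 changed most. Tbx3 (identifier 21386, chr5:119670534-119684724, plus strand), a T-box factor that supports self-renewal and is also active in primitive endoderm and in limb and heart development, was at 116 and 121 CPM in WT and at 394 and 436 CPM in Terc-/- libraries. The lower Terc-/- library was far above the higher WT library. The log2 fold change was 1.81 (standard error 0.05, 95% interval 1.70 to 1.92, edgeR adjusted p = 1.13e-27), a 3.50-fold rise. In size of change in either direction, 98.0% of the genes tested had a smaller one. Pou5f1 was at 23.7 and 22.8 times the level of Tbx3 per exon length in WT and at 9.03 and 8.26 times in Terc-/- libraries. The antisense gene Tbx3os1, which overlaps Tbx3, is not in the count table, and the strand setting of the counting is not given in the sources used here, so reads of the 2 genes cannot be told apart.

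Prdm14 (identifier 383491, chr1:13113428-13127163, minus strand), a PR-domain protein that represses FGF signalling and DNA methyltransferase genes in ESCs and is needed for germ cells, was the lowest of the 10. It was at 16.4 and 14.8 CPM in WT and at 35.4 and 31.6 CPM in Terc-/- libraries. The higher WT library was well below the lower Terc-/- library. The log2 fold change of 1.10 had the widest error of the factors (standard error 0.09, 95% interval 0.92 to 1.29, edgeR adjusted p = 1.27e-13), and the interval spanned the value of 1 that marks a 2-fold change. With single libraries left out, the estimate lay between 1.02 and 1.18. Of the genes for de novo DNA methylation, Dnmt3b and Dnmt3a had log2 fold changes of -1.13 and -0.50 (edgeR adjusted p = 1.59e-22 and 1.46e-11). Dnmt3l, which encodes their cofactor, was higher at 0.31 (edgeR adjusted p = 1.47e-06). A part of Prdm14 in these differences was not tested.

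Tfcp2l1 (identifier 81879, chr1:118627923-118685168, plus strand), a grainyhead-family factor downstream of LIF and STAT3, rose 1.74-fold. Its levels were 367 and 378 CPM in WT and 634 and 660 CPM in Terc-/- libraries. The groups were widely separated and the replicates lay within 1.04-fold of each other. The log2 fold change was 0.80 (standard error 0.05, edgeR adjusted p = 9.50e-18), below the 2-fold cutoff in each alternative fit. Short RNA genes and a pseudogene that overlap Tfcp2l1 are not in the count table.

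Esrrb (identifier 26380, chr12:86361117-86521628, plus strand), an orphan nuclear receptor that binds ESC enhancers with OCT4 and is repressed by TCF7L1, was at 648 and 672 CPM in WT and at 839 and 852 CPM in Terc-/- libraries. The Terc-/- libraries were both higher, by a log2 fold change of 0.36 (standard error 0.05, edgeR adjusted p = 2.81e-08). Zfp42 (identifier 22702, chr8:43295067-43307009, minus strand), known as REX1 and used as a reporter of the naive state, was at 66.2 and 69.9 CPM in WT and at 83.0 and 80.8 CPM in Terc-/- libraries. Its groups did not overlap, and its log2 fold change of 0.27 was the smallest of the 9 that were called (standard error 0.06, edgeR adjusted p = 0.000558). Its adjusted p-value ranged from 1.16e-05 to 0.0405 over the alternative fits, and 55.6% of genes had a smaller change.

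**Figure D2:**
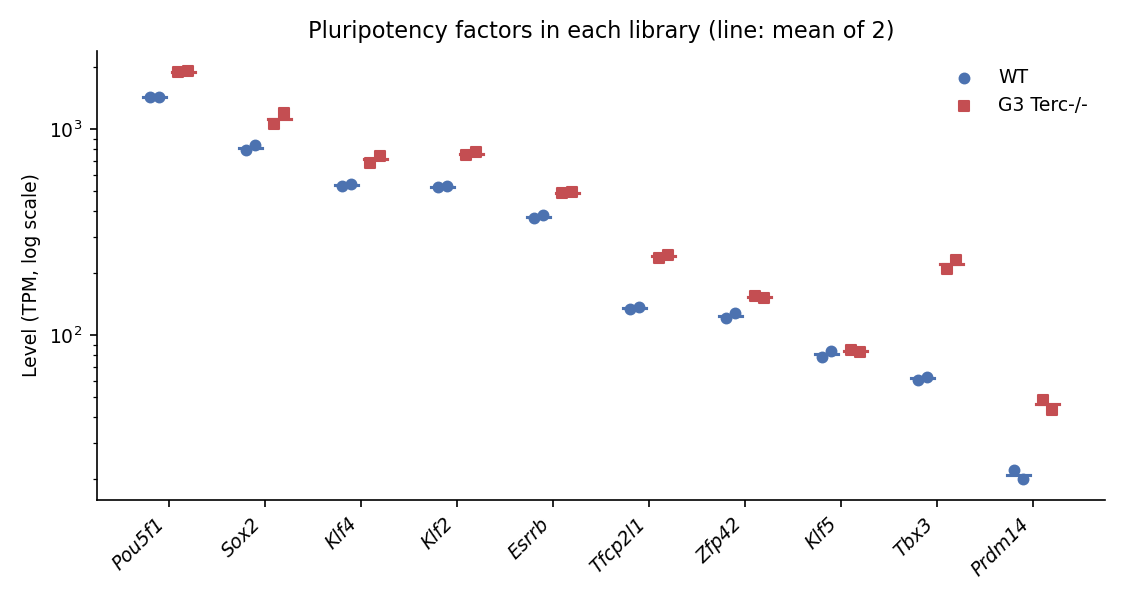
Level of each factor in each library as TPM (counts divided by exon length and scaled to 1 total in every library, log axis), with 2 libraries per genotype as points and their mean as a line. WT and G3 Terc-/- points are separate for each factor except Klf5, and Tbx3 moves from 61.6 to 221 TPM. The share of all genes with separate points was not counted.

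The 3 Krüppel-like factors, zinc-finger proteins that can stand in for one another in ESC self-renewal, did not move alike. Klf2 (identifier 16598, chr8:72319062-72321654, plus strand) was at 280 and 283 CPM in WT and at 392 and 405 CPM in Terc-/- libraries. These ranges were far apart, and the log2 fold change was 0.50 (standard error 0.05, 95% interval 0.40 to 0.60, edgeR adjusted p = 1.70e-11). Klf4 (identifier 16600, chr4:55527137-55532475, minus strand), which LIF induces through STAT3, was at 472 and 480 CPM in WT and at 596 and 643 CPM in Terc-/- libraries. It was higher in both Terc-/- libraries, with a log2 fold change of 0.38 (standard error 0.05, 95% interval 0.28 to 0.48, edgeR adjusted p = 1.72e-08).

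Klf5 (identifier 12224, chr14:99298691-99313412, plus strand), which is also needed in trophectoderm and in epithelia, was at 118 and 127 CPM in WT and at 125 and 122 CPM in Terc-/- libraries. Both Terc-/- values fell between the WT values. The log2 fold change was 0.01 (standard error 0.06, edgeR adjusted p = 0.894), and the 95% interval from -0.10 to 0.12 lay below the intervals of Klf2 and Klf4, although the difference between the genes was not tested. A change in either direction smaller than that of Klf5 was seen in 2.82% of genes.

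Of the summed TPM of Klf2, Klf4 and Klf5, Klf5 made up 6.88% and 7.28% in WT and 5.56% and 5.16% in Terc-/- libraries. The share of Klf2 was 46.1% and 45.7% in WT and 49.2% and 48.4% in Terc-/- libraries, and that of Klf4 was 47.0% in both WT libraries and 45.3% and 46.5% in Terc-/- libraries. The shares of all 3 were separate between genotypes, with Klf2 the only one higher in Terc-/- ESCs. The ratio of Klf2 to Klf4 was 0.98 and 0.97 in WT and 1.09 and 1.04 in Terc-/- libraries. These shares and ratios are given as values and were not tested. The smallest p that a two-sided exact permutation test on 2 libraries per genotype allows is 0.333.

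**Figure D3:**
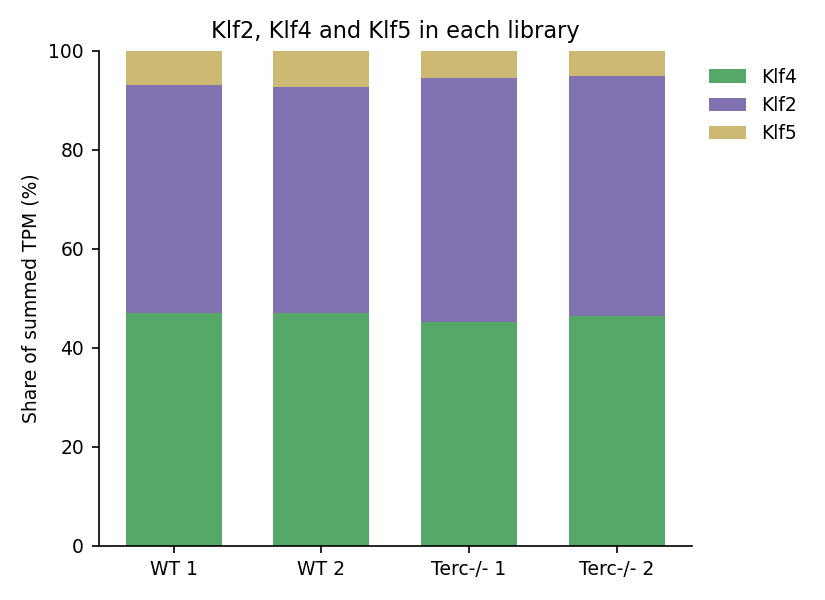
Share of the summed TPM of Klf2, Klf4 and Klf5 held by each gene, as a stacked bar per library (percent, from 0 to 100). Klf2 and Klf4 each hold 45.3% to 49.2% in every library, and Klf5 holds 5.16% to 7.28%.

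Per exon length, the factors spanned a wide range in WT ESCs, from Pou5f1 at 1428 ± 1.19 TPM (SD, n = 2) to Prdm14 at 21.0 ± 1.49 TPM (SD, n = 2). Between them the WT order was Sox2 (814 TPM), Klf4 (537 TPM), Klf2 (525 TPM), Esrrb (375 TPM), Tfcp2l1 (136 TPM), Zfp42 (124 TPM), Klf5 (81.0 TPM) and Tbx3 (61.6 TPM). In Terc-/- ESCs, Tbx3 at 221 ± 15.7 TPM (SD, n = 2) stood above Zfp42 at 153 ± 2.83 TPM and Klf5 at 83.5 ± 1.46 TPM, and Klf2 at 760 ± 17.2 TPM stood above Klf4 at 715 ± 38.0 TPM. The other factors kept their ranks, with Pou5f1 at 1905 ± 15.0 TPM and Prdm14 at 46.0 ± 3.72 TPM at the ends. No neighbours in either order had libraries that overlapped. Pou5f1 had a higher CPM than 99.5% of the genes tested, and Prdm14 than 53.5%.

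The 10 factors lie on 8 chromosomes. Klf4 and Zfp42 had only 2 tested genes each within 1 Mb, with median log2 fold changes of -0.21 and -0.23. The median log2 fold change of the tested genes within 1 Mb of each factor ranged from -0.23 around Zfp42 (2 genes) to 0.10 around Sox2 (7 genes), and it was 0.02 for the 98 genes around Pou5f1. Around Tbx3 the median of 12 genes was -0.03. The non-coding gene Tbx3os2, next to Tbx3, had 7 and 10 counts in WT and 25 and 22 in Terc-/- libraries, a log2 fold change of 1.58 (edgeR adjusted p = 0.00344). AW549542, on the other side of Tbx3, had 6 and 7 counts in WT and 27 and 20 in Terc-/- libraries, a log2 fold change of 1.95 (edgeR adjusted p = 0.000696). Both low-count neighbours were thus higher in the libraries in which Tbx3 was higher. Around Sox2, Sox2ot was higher by 1.24 (edgeR adjusted p = 0.00171), and Gm38509 had 14 and 11 counts in WT and 2 and 0 in Terc-/- libraries. Around Pou5f1, 7 of the 98 genes passed both cutoffs, all of them higher, from C4a at 1.14 to H2-M10.4 at 4.88. Over all genes tested, 4.73% were higher and 3.13% lower past both cutoffs. Samd15 near Esrrb was higher at 1.02 by unadjusted P (edgeR adjusted p = 0.0935), and Unc13a and Plvap near Klf2 were lower with log2 fold changes of -1.18 and -1.11. No tested gene within 1 Mb of Klf4, Klf5, Tfcp2l1, Prdm14 or Zfp42 passed both cutoffs.

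**Figure D4:**
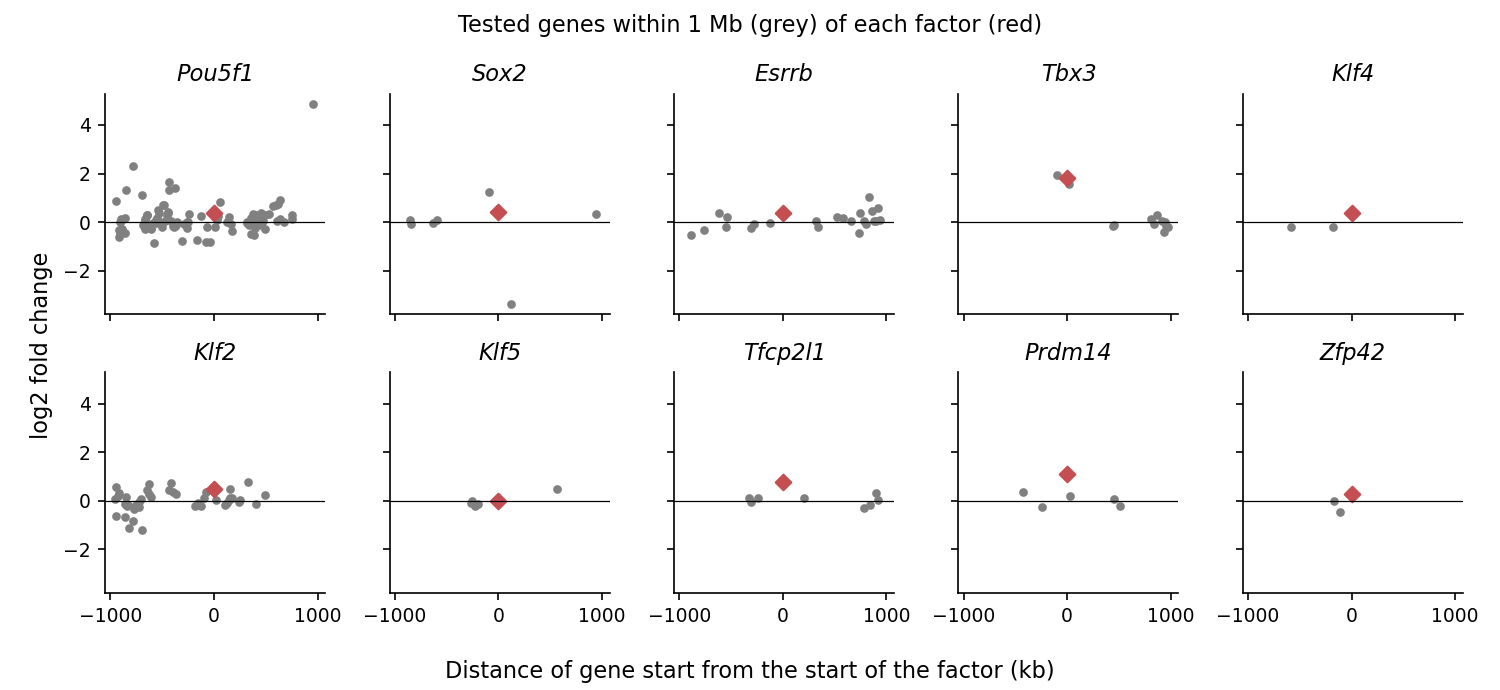
Log2 fold change (G3 Terc-/- over WT) of the tested genes within 1 Mb of each factor (grey points) by distance of their start from that of the factor in kb, with the factor as a red diamond. Medians of the grey points lie between -0.23 and 0.10, and the 2 grey points that lie close to Tbx3 are Tbx3os2 and AW549542.

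The signals and partners of the factors were compared in the same fit, on lists described by their counts and medians. Beside each count stands the share over all genes tested, 21.7% higher and 21.8% lower by edgeR adjusted p. Of 17 genes of the LIF and Wnt input, 2 were higher (1 without either WT library or without Terc-/- replicate 2) and 7 lower, with a median log2 fold change of -0.004. Stat3, the transcription factor that LIF activates, was at 117 and 125 CPM in WT and 121 CPM in both Terc-/- libraries (log2 fold change -0.003, edgeR adjusted p = 0.971). The STAT3 targets Socs3 and Pim1 were lower, by log2 fold changes of -0.39 and -0.55, and so was Pim3 at -0.36. The STAT3-induced factors Klf4 and Tfcp2l1 were higher. Il6st had a log2 fold change of -0.32, and Axin2 one of 0.06 (edgeR adjusted p = 4.05e-05 and 0.687). Tcf7l1, a repressor of Esrrb, Tfcp2l1 and Klf2 among other ESC genes, fell from 83.9 and 85.0 CPM to 45.8 and 41.8 CPM. Its log2 fold change was -0.94 (edgeR adjusted p = 2.02e-15). The part of these inputs in the rise of the factors was not tested. Tcf7l1 lies on chromosome 6, and no factor of the 10 lies on that chromosome. The 22 tested genes within 1 Mb of Tcf7l1 had a median of -0.81, and 21 of them were lower at any size of change. The paper reports that part of this chromosome was deleted in Terc-/- ESCs of the generation used here. Whether copy number had a part in the fall of Tcf7l1 was not tested.

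Of 28 other genes of the pluripotency network, 14 were higher by adjusted p and 12 lower, with a median of 0.05. The higher genes past both cutoffs were Foxd3 (log2 fold change 1.54), Tcl1 (1.15), Nanog (1.13) and Nr5a2 (1.10). Nanog, the third factor usually counted with OCT4 and SOX2, was at 410 and 408 CPM in WT and 889 and 900 CPM in Terc-/- libraries. It too lies on chromosome 6. The 12 tested genes within 1 Mb of it had a median of 0.62, and 10 of them were higher at any size of change. Dppa3, a maternal factor of the naive epiblast and the germ line, had a log2 fold change of -1.22. The 13 tested genes within 1 Mb of Dppa3, on the same chromosome, had a median of 0.68. Whether copy number on this chromosome had a part in the changes of Nanog and Dppa3 was not tested. Of the 11 ESC markers, most of which are also among the 28, Nanog, Gdf3 (0.85), Tdgf1 (0.66), Fgf4 (0.47) and Alpl (0.36) were higher. Dppa4 (-0.13), L1td1 (-0.17), Utf1 (-0.32), Lin28a (-0.42), Dppa5a (-0.79) and Fut4 (-1.47) were lower. Gdf3 lies on chromosome 6 as well, and the 13 tested genes within 1 Mb of it had a median of 0.67. Whether copy number had a part in the change of Gdf3 was not tested.

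Of 16 cofactors that act with OCT4, SOX2 and their partners, 3 were higher and 5 were lower, and none passed the 2-fold cutoff with edgeR or DESeq2, although 3 higher and 7 lower had an unadjusted p under 0.05. The changes were small, as in Mbd3 of the NuRD complex (-0.22), Hdac1 (0.19), Nacc1 (0.19) and Wdr5 (0.19). The cofactor counts were lower in the fits without a WT library than in those without a Terc-/- library. The same held over all genes tested for an unadjusted p under 0.05. Without a WT library, the spread in the fit came from the Terc-/- pair alone. Tested relatives of the 10 factors in the KLF, SP, SOX, POU, ESRR, TBX, TFCP2, PRDM and YY families numbered 36. Of these, 8 were higher and 14 were lower, with a median of -0.06 (3 and 12 with DESeq2). Over all genes tested, 21.7% were higher and 21.8% lower by edgeR adjusted p. Beside Klf2 and Klf4, Klf8 was higher by 1.03, while Klf6 and Klf10 were lower by log2 fold changes of -1.16 and -0.70. Grhl2, of the grainyhead superfamily of Tfcp2l1, had one of -0.81.

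**Figure D5:**
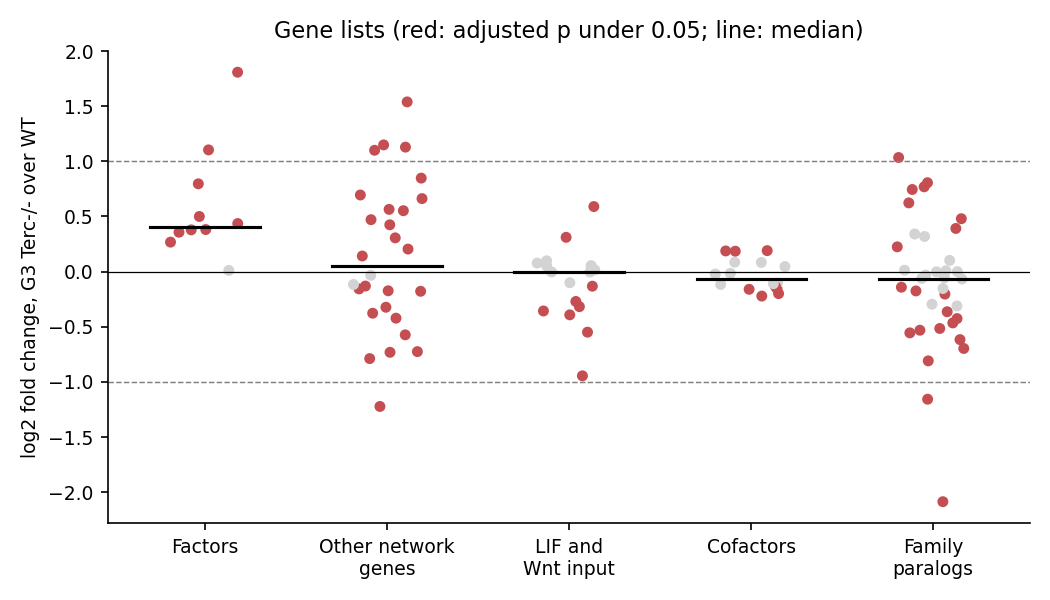
Log2 fold change (G3 Terc-/- over WT) of each tested gene of 5 lists, red where the adjusted p is under 0.05, with the median of a list as a black line and dashed lines at a 2-fold change. Of the 10 factors, 9 are red and above 0, while the other lists have red points on both sides of 0.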

How the data were processed

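RNA-seq of 2 WT and 2 G3 Terc-/- ESC libraries was analysed from the table of raw counts per gene that the authors deposited, without normalization. Per the submitters' processing notes, reads were processed with Trim Galore, STAR and featureCounts against mm10. Versions and strand setting are not given in the sources used here. A table of transposable element counts was not used. Gene counts between 18047995 and 22520017 per library limit precision mainly for genes with low counts.

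Of 24116 identifiers, 24061 matched a RefSeq symbol (GRCm38.p6), which also gave positions. Samples were grouped by the genotype in their labels. Fold changes came from edgeR 4.0.16 in R 4.3.3 (filterByExpr, TMM, quasi-likelihood test with genotype alone in the model), with p-values adjusted by Benjamini-Hochberg over all 14896 genes tested. The study's own test, Cufflinks, needs reads and was not repeated. CPM used TMM-scaled library sizes, and TPM used exon lengths from GENCODE M21. The length joined all annotated exons of a gene, whichever transcript is made, so ratios and ranks between genes depend on it. Intervals are at the 95% level and come from the fit. Promoters were read from RefSeq and figures drawn with matplotlib 3.10.9.

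The text names the 10 factors, Terc, up to 4 genes of each other list with the smallest p, list genes past both cutoffs, all ESC markers, 5 feeder markers and neighbours past both cutoffs. Fn1 and, in places, list genes beyond the first 4 were named after their values were seen, as were the printed promoters. Some genes that the rule names are not reported here. The factors, lists and tests were chosen with earlier results of these data known.

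Alternatives were DESeq2 1.42.0, its size factors in edgeR, library totals, TMM without chromosome 6, no filter, a mean of at least 50 counts, a replicate block and each library left out. The edgeR fit was first tested on simulated data.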

Additional observations from a re-analysis of the deposited data

How the results depend on the processing

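Of the 10 factors, 9 kept their direction and their side of the threshold in each of the 11 alternatives, and the counts of 9 higher by adjusted p and of 2 higher past the cutoffs were the same in each. Klf5 was not called in any, and its log2 fold change changed sign to -0.0021 without the filter and ranged from -0.043 (without WT replicate 1) to 0.067 when single libraries were left out. It was -0.0057 without Terc-/- replicate 1. With a mean of at least 50 counts, which left 12177 genes tested, 285 genes were higher and 271 lower past the cutoffs, in place of 704 and 466 of 14896. With a library left out, the lone library was assumed to vary like the pair of the other genotype.

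No label says that the replicate numbers pair the libraries, and deviations of same-numbered libraries had a correlation of 0.0617. With the replicate block, 9 factors were higher by adjusted p and 2 past the cutoffs, as without it, and 700 genes were higher and 461 lower past the cutoffs. A window of 2 Mb in place of 1 Mb moved the neighbours' medians to 0.08 around Klf4 and -0.01 around Zfp42. No scaling moved the median log2 fold change of all genes by more than 0.0356. Depth limits the low-count neighbours most, and Prdm14 among the factors.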

Other observations

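Genes that mark the exit from the naive state or other lineages of the early embryo moved in both directions in the libraries in which 9 of the 10 factors were higher. By edgeR adjusted p, 21.7% of all genes tested were higher and 21.8% lower. Of 14 formative and primed genes, 5 were higher and 4 were lower by the same rule. Fgf5, a ligand of the early postimplantation epiblast, rose from 1.14 and 1.40 CPM in WT to 5.55 and 5.21 CPM in Terc-/- libraries, a log2 fold change of 2.08. Fgf15 was higher by 1.67, while Dnmt3b was lower by a log2 fold change of -1.13.

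Of 9 trophectoderm genes tested, 1 was higher and 5 were lower (3 lower without WT replicate 2). The keratins Krt8 and Krt18 had log2 fold changes of -1.26 and -1.81, Hand1 had -1.94 and Gata3 had -1.06. Eomes, a T-box gene of trophectoderm and primitive streak, was higher by 1.63, from 8.43 and 9.07 CPM to 27.5 and 26.6 CPM. Of 9 primitive endoderm genes tested, 1 was higher (Lama1, 0.30) and 4 were lower, among them Gata6 (-1.43), Dab2 (-1.05) and Gata4 (-0.75). Of 9 mesoderm and ectoderm genes tested, 4 were higher and none was lower by adjusted p or by unadjusted p under 0.05 with edgeR or DESeq2, although 1 was lower without Terc-/- replicate 2. Among them were Neurog1 (2.25), the mesoderm gene T (0.81) and Sox1 (0.62), which stayed at or below 7.45 CPM in each library. With DESeq2, 2 of the list were called higher.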
